A study of Drosophila melanogaster with 5 samples.

Results

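The Imd pathway is the branch of the innate immune system of Drosophila melanogaster that answers bacteria with a particular type of cell wall peptidoglycan, and its intracellular signalling genes were read here in larval blood cells. The genes were fixed by name as imd, Rel, Dredd, key, Tak1, Tab2, Fadd and pirk, and a probe set counted if the platform annotation mapped it to 1 of them alone. Of these 8 genes, 7 had a probe set named here, with 1 probe set each, out of 18769 probe sets and 11982 named genes. Tak1 was not analysed here.

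Peptidoglycan is sensed by the recognition proteins PGRP-LC and PGRP-LE, which pass the signal to the adaptor imd. imd binds Fadd, which brings in the caspase Dredd, and the kinase Tak1 with its partner Tab2 then activates a kinase complex of IKKbeta and key. Rel, the transcription factor at the end of the chain, is cut by Dredd, enters the nucleus and switches on antimicrobial peptide genes. pirk is switched on by Rel and holds the pathway back by binding the receptors and imd. Tak1 also feeds the JNK kinase cascade. The fat body is the main source of antimicrobial peptides in the larva, and blood cells make some of them too.

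Hemocytes, the circulating blood cells, were taken from larvae of the third instar on 5 Affymetrix arrays, 1 per stock. The control was the strain W1118. The spen stock was labelled loss of function and carries the P-element insertion spen(GE10359) at a UTR of split ends, the E(spl) stock was labelled loss of function and named E(spl)rvl, BL199, the Su(H) stock was labelled loss of function and named Su(H)l(417), BL417, and the EGFR stock was labelled gain of function and named BL1564. Each array pooled the cells of 200 to 300 larvae, giving 1.0 to 1.3 µg of total RNA that was amplified before labelling. Whether the larvae were homozygous, and the allele of the EGFR stock, are not given in the sources used here.

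There were no replicate arrays, so no test could be made, and higher and lower describe these arrays only. In pooled cells, fewer cells of a type and less RNA per cell cannot be told apart. All values are log2 levels as deposited, and a difference of 1 is 2-fold. A gene was counted as differing if it was at least 2-fold off and reached 4.50, the median of all levels, on either of the arrays compared. The only error the table holds is the spread among probe sets of 1 gene. Against the control, its pooled SD was 0.51 for spen, 0.62 for Su(H) and 0.58 for both E(spl) and EGFR. This spread does not measure variation between arrays or between pools of larvae. A difference beyond it may therefore still lie within that variation. Array medians lay between 4.46 and 4.54. The highest Bacillus control probe set, which marks the background, lay between 4.28 and 4.78. The brighter probe set of the spen gene read 4.90 in the spen stock, 9.79 in the control and 9.14 to 10.75 in the rest. The single Egfr probe set stood at 3.89 to 4.41 and could not check the EGFR label. Plasmatocyte markers, 10 of 10 named, had a mean level of 12.27 to 12.65 on all 5 arrays.

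All 7 Imd genes were above the highest Bacillus control on all 5 arrays. The inhibitor pirk differed strongly between stocks, while the adaptors, the caspase and the key subunit of the kinase complex differed from the control by at most 0.53 log2 units. Against control, 2 of 7 genes passed 2-fold in spen (pirk lower, Tab2 higher), 1 in Su(H) (pirk lower), 1 in E(spl) (pirk higher) and 0 in EGFR. Over all genes that reached the level filter, the share past 2-fold was 17.3% for spen, 14.9% for EGFR and 21.9% each for E(spl) and Su(H). All 7 genes also reached 8.08, the 75th percentile of all levels, in each comparison. Among genes that did so, the share was 10.3% for spen, 12.4% for EGFR, 15.8% for E(spl) and 16.8% for Su(H). With 7 genes, the counts are too small to be set apart from these shares. By size on the deposited scale, pirk lay below the 5th percentile of all genes in spen and Su(H), and Tab2 above the 95th in spen. The 7 genes had a median difference of 0.24 in spen against 0.04 over all genes, of −0.25 against −0.03 in Su(H), of 0.00 against 0.01 in E(spl) and of −0.03 against −0.01 in EGFR.

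**Figure D1:**
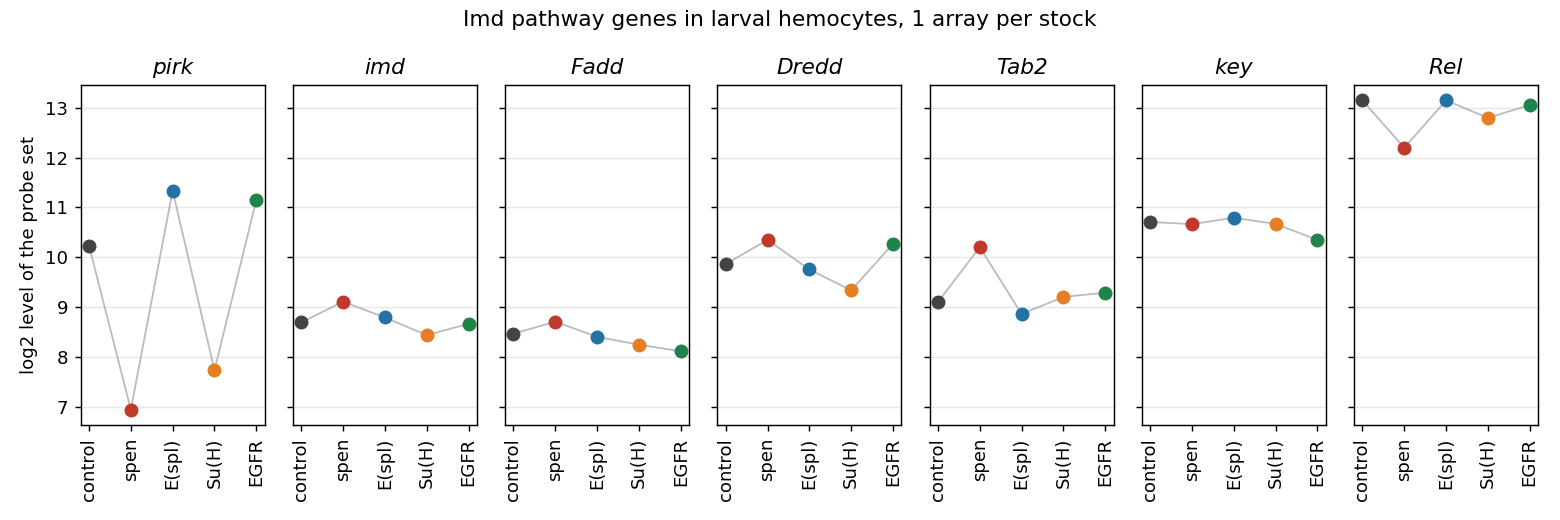
Log2 level of the probe set of each Imd pathway gene (y axis) on each of the 5 arrays (x axis), 1 point per array, with lines only to guide the eye. pirk runs from 6.94 on spen to 11.34 on E(spl), while the 6 other genes span 0.45 to 1.34 log2 units. Levels of different probe sets are not comparable with each other.

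pirk, the feedback inhibitor, stood at 10.23 on the control array, 6.94 on spen, 11.34 on E(spl), 7.73 on Su(H) and 11.14 on EGFR. The arrays fell apart into spen and Su(H) below the control and E(spl) and EGFR above it. pirk was 9.81-fold lower than the control in spen and 5.66-fold lower in Su(H). It was 2.15-fold higher in E(spl), where 6.49% of genes were higher by 2-fold, and 1.88-fold higher in EGFR, the last being short of 2-fold. In units of the SD among probe sets of 1 gene, the sizes were 6.46 for spen, 4.06 for Su(H), 1.89 for E(spl) and 1.56 for EGFR. From high to low, the order was E(spl), EGFR, control, Su(H) and spen. The step from E(spl) to EGFR (0.19) was within that SD. The steps from EGFR to control (0.91), from control to Su(H) (2.50) and from Su(H) to spen (0.79) exceeded it. Whether they exceed the variation between arrays could not be tested.

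spen and Su(H), both low in pirk and both labelled as loss of function, differed by 0.79 (Su(H) minus spen, 1.73-fold), short of 2-fold. E(spl) and Su(H), also both labelled as loss of function and both genes of the Notch pathway, differed by −3.61 (Su(H) minus E(spl), 12.2-fold), where 6.51% of genes passed 2-fold in either direction. EGFR exceeded Su(H) by 3.42 and spen by 4.21. E(spl) exceeded spen by 4.40, or 21.1-fold. Of the 10 pairs of arrays, 7 differed by at least 2-fold in pirk. The range of pirk over the 5 arrays was 4.40 log2 units, and 79 of 8419 genes that reached the filter on any array (0.938%) had a range at least as large. The median range of those genes was 0.84. Among the 4487 genes that reached the 75th percentile of all levels on any array, 1.74% had a range at least that of pirk.

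**Figure D2:**
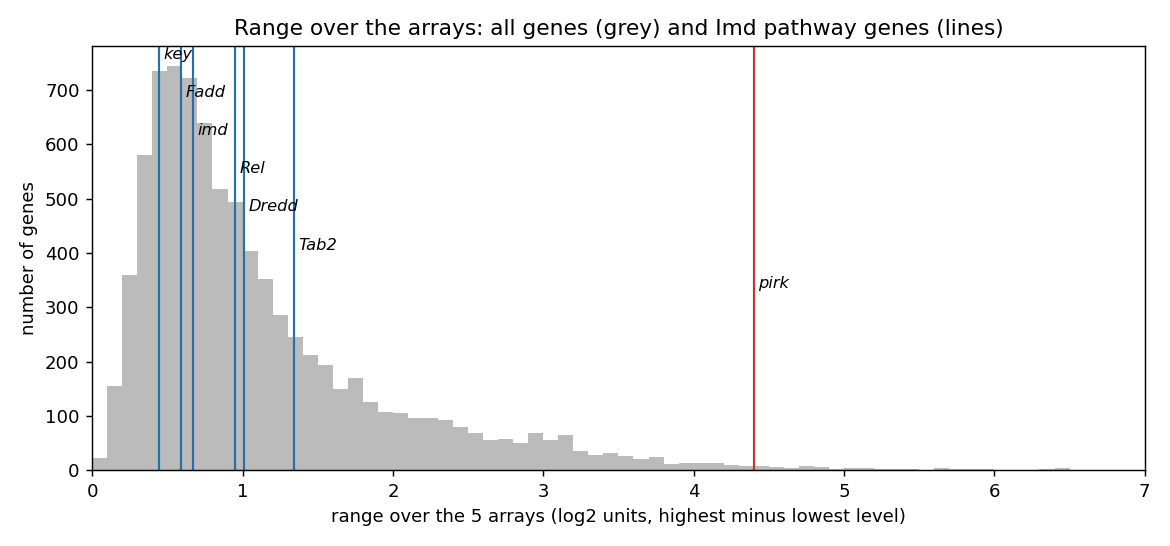
Histogram of the range over the 5 arrays (highest minus lowest log2 level, x axis) for the 8419 genes that reached the level filter on any array (y axis, number of genes), with the Imd genes as lines. The red line of pirk lies at 4.40 in the tail, and the 6 blue lines lie between 0.45 and 1.34. The axis ends at 7 log2 units.

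The pathway's entry, imd and its partner Fadd, moved little. imd, the death-domain adaptor, stood at 8.69 on the control array, 9.11 on spen, 8.79 on E(spl), 8.43 on Su(H) and 8.66 on EGFR. No step between neighbours in this order exceeded the SD among probe sets. Fadd, which links imd to the caspase, was at 8.46 on control, 8.70 on spen, 8.40 on E(spl), 8.24 on Su(H) and 8.11 on EGFR. Its differences from the control ran from −0.35 in EGFR to 0.24 in spen. Neither gene stood apart in range, since 62.7% of genes had a range at least as large as imd and 69.8% one at least as large as Fadd.

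Dredd, the caspase that cuts imd and Rel, stood at 9.86 on control, 10.35 on spen, 9.75 on E(spl), 9.33 on Su(H) and 10.27 on EGFR. It was highest on spen and lowest on Su(H), the stocks that had the lowest pirk. These 2 arrays differed by 1.01, at 2-fold, against an SD among probe sets of 0.71. Its differences from the control were 0.48 in spen, −0.53 in Su(H), −0.11 in E(spl) and 0.41 in EGFR, each less than the SD of its comparison.

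Tab2, the partner of the kinase Tak1, was at 9.10 on control, 10.20 on spen, 8.86 on E(spl), 9.20 on Su(H) and 9.29 on EGFR. The spen array alone stood above the rest, by 0.91 over EGFR, the next in order, while the 4 other arrays lay within 0.43. The difference of spen from control was 1.10, or 2.14-fold and 2.16 such SDs, where 2.7% of genes were at least 2-fold higher. With renewed quantile scaling it was 0.98 and no longer reached 2-fold. On that scale 571 of 10072 probe sets were at least 2-fold higher in spen, against 307 of 10056 as deposited. Against E(spl), the lowest array, spen was 2.54-fold higher.

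key, the regulatory subunit of the kinase complex, varied least of the 7 genes, with 10.71 on control, 10.66 on spen, 10.79 on E(spl), 10.67 on Su(H) and 10.35 on EGFR. Its range was 0.45, and 82.8% of genes had a range at least as large. Rel, the transcription factor, stood at 13.15 on control, 12.20 on spen, 13.15 on E(spl), 12.80 on Su(H) and 13.06 on EGFR. spen was lowest for Rel and Su(H) the next, as for pirk, but over a much smaller range of 0.95. Rel was 1.93-fold lower than the control in spen, just short of 2-fold and 1.86 of the SDs among probe sets. The differences were −0.35 in Su(H), 0.00 in E(spl) and −0.09 in EGFR. No step between neighbours in the order of Rel exceeded the SD. Probe sets this bright can understate a difference, and by how much was not tested.

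**Figure D3:**
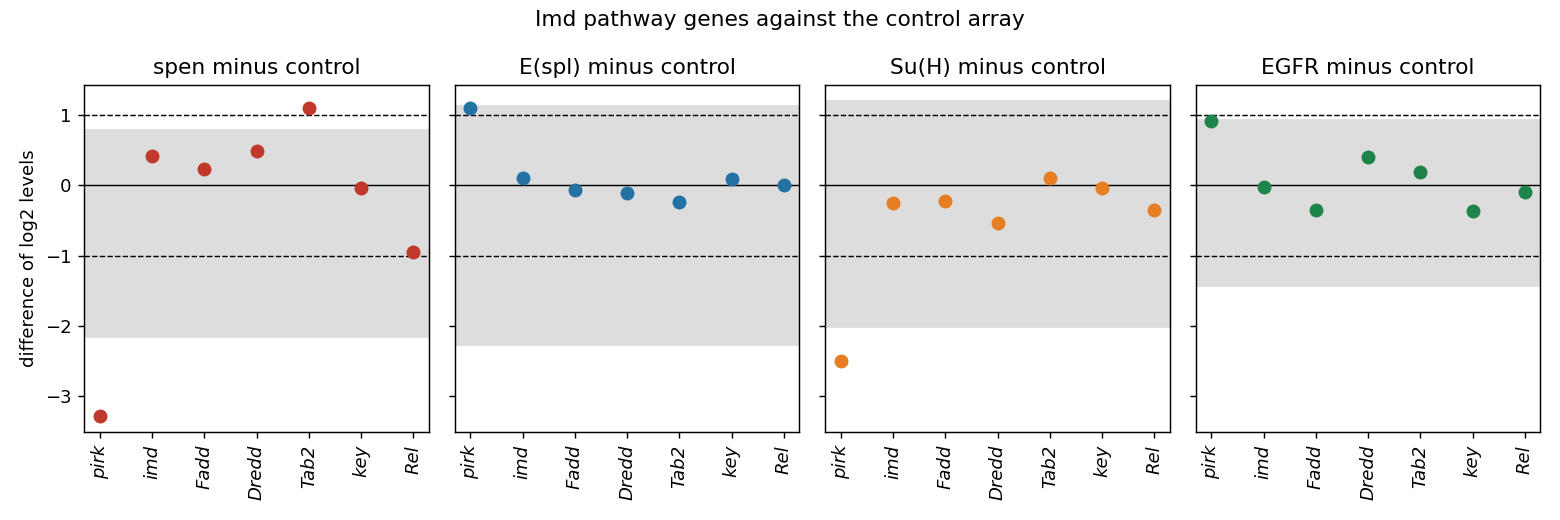
Difference of log2 levels from the control array (y axis) for each Imd gene (x axis) in the 4 mutant stocks, 1 point per gene, with dashed lines at 2-fold and a grey band from the 5th to the 95th percentile of all genes that reached the level filter. pirk lies below the band in spen (−3.29) and Su(H) (−2.50), and Tab2 lies above it in spen (1.10). In E(spl) and EGFR all 7 genes lie within the band.

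The split of pirk was then looked for across all genes, a pattern chosen after its values were seen. In 3 of 8419 genes (0.0356%), both spen and Su(H) lay at least 2-fold below every other array. They were pirk, AttD and P5CDh1. Median centring of the arrays added Keap1. The gap of pirk was 2.50 log2 units. AttD, an attacin gene of the antimicrobial peptide class and a target of the Imd pathway, stood at 8.62 on control, 4.07 on spen, 7.26 on E(spl), 3.61 on Su(H) and 6.01 on EGFR. It was not above the Bacillus controls on spen and Su(H), and was at least 14.2-fold and at least 20.3-fold lower there than on the control. AttD, unlike pirk, also lay below the control in E(spl) (−1.35) and in EGFR (−2.61). P5CDh1, a dehydrogenase gene of proline breakdown, stood at 9.33 on control, 7.73 on spen, 9.25 on E(spl), 7.26 on Su(H) and 10.47 on EGFR.

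Without a fold threshold, spen and Su(H) both lay below the other 3 arrays in 566 genes (6.72%). Among the 7 Imd genes, pirk, from whose values the split was taken, and Rel, by 0.26, did so. In the other pathway lists, of the genes that reached the filter, only AttD, Drs, PGRP-LF and Traf4 did so. None of the other intracellular Imd genes and none of the Toll genes did. Drs, an antifungal peptide gene driven mainly by Toll signalling, did so by 0.93, with 8.91 on control, 6.78 on spen, 7.83 on E(spl), 6.80 on Su(H) and 7.73 on EGFR. PGRP-LF, a membrane protein that blocks signalling by PGRP-LC, did so by 0.31, with 9.47, 7.44, 10.43, 9.16 and 9.48 in the same order. PGRP-LF also had the full order of arrays of pirk, as did Traf4 of the JNK branch list with a gap of 0.15, which 52 of 8419 genes (0.618%) had.

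**Figure D4:**
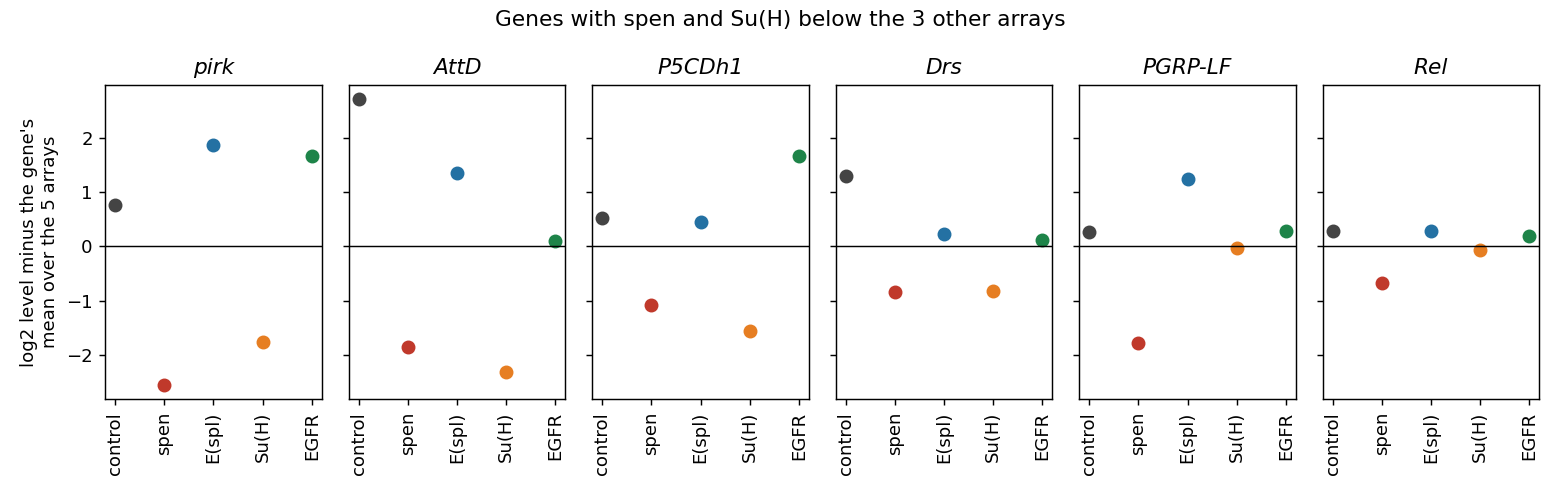
Log2 level minus the gene's own mean over the 5 arrays (y axis) on each array (x axis), for the 3 genes with spen and Su(H) at least 2-fold below the other arrays (pirk, AttD, P5CDh1) and for Drs, PGRP-LF and Rel, which had the same split by less than 2-fold. 1 point is 1 array. AttD was not above background on spen and Su(H).

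Marker lists of cell types and RNA quality were read beside the split of pirk, and neither was tested as its source. In 0 of 8 marker lists (plasmatocyte, crystal cell, lamellocyte, fat body, salivary gland, muscle, gut, germ line and testis) were the mean levels of spen and Su(H) both below the other 3 arrays. Of 61 marker genes at or above the filter, 1 had that split, the testis gene ocn, by 0.04. The stocks did differ in markers. Germ line and testis genes (9 of 10 named) had a mean of 8.25 on control, above 5.98 on spen, 6.27 on E(spl), 6.53 on Su(H) and 7.45 on EGFR. Of the 8 above the filter, 7 were lower by 2-fold in spen, E(spl) and Su(H) and 6 in EGFR. Of all genes, 14.6%, 15.4%, 14.9% and 10.5% were lower in these stocks, in the same order. The list member bam went the other way, 8.62-fold higher in E(spl), 7.82-fold in EGFR and 3.40-fold in Su(H). The mean of 7 crystal cell markers, 7 of 7 named, was 9.54 on spen and 10.84 on control. It was 11.82 on Su(H), 11.87 on EGFR and 12.07 on E(spl). The difference of CG17109 in spen (−5.52) was the largest of the list, and of the 6 above the filter 1 was higher in spen (CG7860, 0.53). Salivary gland genes, 10 of 10 named, had a mean of 7.86 on spen and 4.33 to 5.27 on the others. Muscle genes (6 of 10 named) had a mean of 7.40 on Su(H) and 7.04 on E(spl), against 5.10 to 5.66 on the others. Gut genes (8 of 8 named) had a mean of 6.90 on Su(H) and 4.58 to 5.38 elsewhere, though thetaTry was lower in Su(H) than in control (−1.78). Lamellocyte markers (10 of 10 named) had a mean of 9.73 to 10.43 on E(spl), EGFR and Su(H), the last being highest. It was 8.86 on control and 8.84 on spen. Not all members were higher: betaTub60D was lower in E(spl) (−1.79), and msn lay below the control in E(spl) (−0.15) and Su(H) (−0.17). The mean of the fat body genes (7 of 10 named) was highest on control (11.16) and lowest on EGFR (9.70). Its members did not share this order. Fbp1, Lsp2 and apolpp were highest on control, Fbp2, FASN1 and bmm on Su(H), and Mtp on spen. Only Fbp2, Lsp2 and apolpp were lowest on EGFR, where FASN1 lay above the control by 1.25. For actin, eIF-4a and GAPDH together, the mean excess of the 3' over the middle probe set was 2.59 for Su(H) and 2.14 for E(spl). It was 1.90 for EGFR, 1.74 for spen and 1.57 for the control. The part of these differences in the levels of pirk and in the single comparisons was not tested.

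Upstream of the adaptor, 6 of 10 recognition and peptidoglycan-binding genes had a name here. In spen, 1 of the 5 above the filter was lower by 2-fold (PGRP-LF, −2.03), where 14.6% of all genes were, and in EGFR 1 of 5 was lower (PGRP-LA, −2.29), where 10.5% of all genes were. None of 6 passed in E(spl), and none of 5 in Su(H), beside 21.9% of all genes in either direction in each. Renewed quantile scaling brought PGRP-LB past 2-fold higher in E(spl) and EGFR and PGRP-LA past 2-fold lower in Su(H), and median centring brought PGRP-LF past 2-fold higher in E(spl) and PGRP-LB in EGFR. PGRP-LA, a family member described as promoting Imd signalling in barrier epithelia, stood at 9.26 on control, 10.08 on spen, 8.85 on E(spl), 8.29 on Su(H) and 6.97 on EGFR. It was 4.91-fold lower in EGFR than in control. In the Release 6 gene table PGRP-LA and PGRP-LF lie close together, with 1 other protein-coding start between them, yet they were low in different stocks. PGRP-LE, an intracellular sensor, stayed between 10.32 and 10.62. PGRP-LB, a peptidoglycan-cutting amidase that Rel switches on, was dim, at 5.0 on control and 5.48 to 5.99 in the mutants, with its largest difference (0.99) in EGFR.

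Of 14 other intracellular regulators, 12 had a name here and 11 reached the filter. In spen and in Su(H), 0 of 11 passed 2-fold, beside 17.3% and 21.9% of all genes in either direction. In E(spl) 1 of 11 was higher, IKKbeta, beside 6.49% of all genes. In EGFR 2 of 11 were lower, IKKbeta and ben, beside 10.5% of all genes. IKKbeta, the kinase that key serves, stood at 8.26 on control, 8.53 on spen, 9.30 on E(spl), 7.63 on Su(H) and 6.12 on EGFR. It was 4.38-fold lower in EGFR and 2.06-fold higher in E(spl), while key differed there by −0.36 and 0.08. The kinase and its regulatory subunit were thus unequal in level differences on the EGFR array. ben, a ubiquitin-conjugating enzyme of the Tak1 step, stood at 9.70 on control, 9.92 on spen, 9.0 on E(spl), 9.99 on Su(H) and 8.31 on EGFR, 2.62-fold lower than the control on the last. Its partner Uev1A stayed between 12.17 and 12.49. The ubiquitin ligase gene Diap2 differed by −0.74 in Su(H) and −0.88 in E(spl), and SkpA, a ligase subunit gene, by −0.81 in Su(H). Caspar (casp), an inhibitor of Rel cleavage, and akirin, a nuclear partner of Rel, differed by at most 0.46 in any stock.

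**Figure D5:**
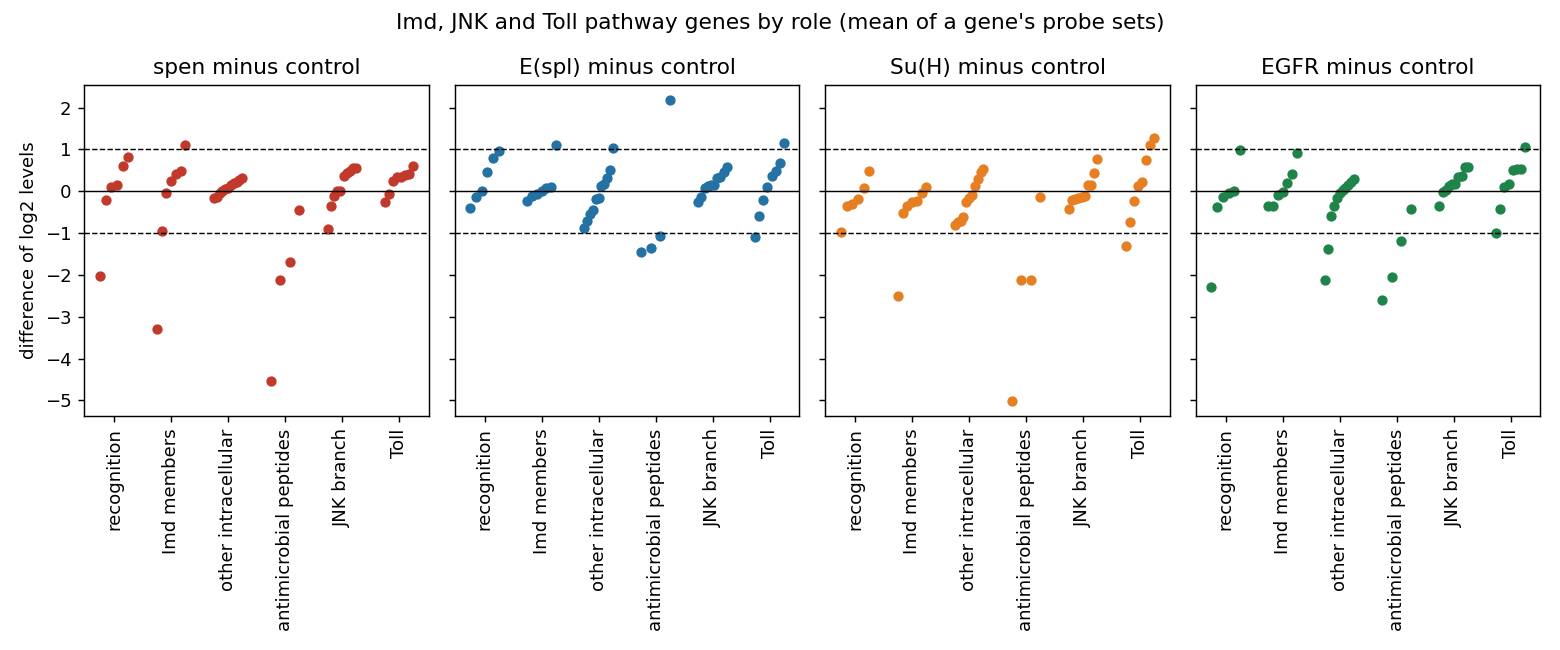
Difference of log2 levels from the control array (y axis) for the genes of each role (x axis) in the 4 stocks, 1 point per gene, averaged over its probe sets and shown if it reached the level filter on any array, with dashed lines at 2-fold. The lowest points of the antimicrobial peptide genes are those of AttD in Su(H) (−5.01) and spen (−4.54). Mtk is lower in EGFR (−2.05) than in spen (−1.70). JNK branch genes stay within 2-fold in all 4 stocks on the deposited scale. The differences of AttD in spen and Su(H) are drawn as measured, though its level there was not above background.

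At the output, 6 of 14 antimicrobial peptide genes had a name here, of which DptB, a diptericin, and Def, the defensin, were not above background on the control array. Of the 4 that reached the filter, 3 were lower by 2-fold in each of the 4 stocks (AttD, Mtk and Drs, where Drs in E(spl) fell short of 2-fold under median centring), and the comparisons share the control array. Over all genes, the share lower by 2-fold was 14.6% for spen, 14.9% for Su(H), 15.4% for E(spl) and 10.5% for EGFR. Mtk, an antifungal and antibacterial peptide gene, stood at 6.81 on control, 5.11 on spen, 5.36 on E(spl), 4.69 on Su(H) and 4.76 on EGFR, so the control was the single high array. The control also had the highest mean of the germ line and testis genes (8.25) and of the fat body genes (11.16). Not every member was highest there: bam of the first list was not, nor were Fbp2, FASN1, Mtp and bmm of the second. The part of either tissue in the level of Mtk was not tested. CecB, a cecropin, stood at 5.22 on control, 4.76 on spen, 7.40 on E(spl), 5.07 on Su(H) and 4.79 on EGFR. It was 4.54-fold higher in E(spl), the stock with the highest pirk, and at 4.76 to 5.22 elsewhere, where the highest background control was at 4.28 to 4.78. The peptide genes that are Imd targets thus did not share 1 pattern with pirk.

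In the JNK branch that leaves the pathway at Tak1, 11 of 11 genes had a name here. Of the 10 above the filter, 0 passed 2-fold in any stock, beside 14.9% to 21.9% of all genes, too few genes to set apart from that share. With renewed quantile scaling, puc in spen reached 2-fold. puc, the phosphatase that JNK signalling switches on, was nearest, at 11.43 on control, 10.52 on spen, 11.91 on E(spl), 11.87 on Su(H) and 11.77 on EGFR. Its difference in spen was −0.91, beside −0.95 for Rel. The mean of a gene's probe sets hid 1 larger value: the brighter probe set of egr, the TNF ligand, was higher by 1.18 in EGFR and by 0.98 in spen, while its other probe set was near background.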

How the data were processed

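Total RNA of pooled hemocytes was amplified (RiboAmp) and labelled by in vitro transcription, per the labels' protocols. The authors deposited 1 table of 18952 probe sets with log2 values for 5 arrays (2.54 to 14.74), 1 array per group. RMA and GCOS are named in the submitters' processing notes, with roles, versions and settings not given in the sources used here. RMA would remove a shift common to most genes. Manufacturer controls (183) were left out, except 27 Bacillus probe sets used as background. Genes were named from the platform annotation (1 gene for 13647 probe sets, several for 402, none for 4720), and levels of a gene are means of its probe sets. Differences are log2 levels, mutant minus control, computed with Python 3.11.15 and pandas 2.3.3 and checked on simulated data. A fold against a level below the highest Bacillus control was taken against that control and is written as at least.

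No test was possible with 1 array per group, and precision is limited by that number. Members and lists were chosen with earlier results of these data known. All 8 members were to be named, list genes past 2-fold or largest in size, and, for Rel and the member with the largest range, the 5 nearest profiles. Alternatives were 2 scalings, 2 level filters, a 1.5-fold threshold, the mean of the other 3 mutants as reference, and the brightest probe set per gene. No sequences were used, and positions in the Release 6 gene table served only to say which genes are neighbours.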

Additional observations from a re-analysis of the deposited data

How the results depend on the processing

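Each Imd gene has 1 probe set above both level filters, so of the 7 alternatives only 3 (both scalings and the reference) can change a difference or the median. Under these, pirk kept its direction in all 4 stocks, with differences of −3.29 to −3.13 in spen, −2.50 to −2.08 in Su(H), 1.11 to 2.73 in E(spl) and 0.91 to 2.48 in EGFR. The highest values of E(spl) and EGFR came with the mean of the other 3 mutants as reference, a mean that holds the low spen and Su(H) arrays. The count of Imd genes past 2-fold in spen went from 2 to 1 with renewed quantile normalisation, since Tab2 then differed by 0.98. In EGFR it went from 0 to 1 with the 1.5-fold threshold and with the mean of the other 3 mutants as reference, pirk in both. The 1.5-fold threshold also took spen from 2 to 3, adding Rel, where 31.5% to 38.9% of all genes passed in the 4 stocks. The medians of the 7 genes moved by less than the SD among probe sets under those 3. Renewed quantile normalisation brought the higher share of probe sets past 2-fold in spen from 18.4% to 33.6%. Median centring put the median difference of all probe sets at 0.16 in spen, against 0.09 as deposited. Chosen after seeing the data, both scalings were also run on the other pathway lists and on the split of pirk. The genes with spen and Su(H) 2-fold below the other arrays stayed at 3 with quantile normalisation and were 4 with median centring, which added Keap1. With quantile normalisation, puc reached 2-fold lower in spen, PGRP-LA reached 2-fold lower in Su(H), and PGRP-LB reached 2-fold higher in E(spl) and EGFR. With median centring, PGRP-LF reached 2-fold higher in E(spl), PGRP-LB did so in EGFR, and Drs in E(spl) no longer reached 2-fold lower. No paired analysis was possible because each group has 1 array, and no array could be left out for the same reason.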

Other observations

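Toll signalling, the other main immune branch, was read beside Imd in 8 intracellular and receptor genes, all named here. Past 2-fold were 0 of 8 for spen (17.3% of all genes), 3 for Su(H) (21.9%), 2 for E(spl) (21.9%) and 1 for EGFR (14.9%). In E(spl) Pli, a Pellino gene, was higher (1.14) and tub, an adaptor gene, lower (−1.10). In Su(H) Myd88, an adaptor gene, was higher (1.26), Pli was higher (1.10) and tub was lower (−1.32), and in EGFR Myd88 was higher (1.07) while tub differed by −0.995, just short of 2-fold. tub stood at 11.18 on control, 11.55 on spen, 10.08 on E(spl), 9.86 on Su(H) and 10.18 on EGFR, so 3 stocks lay below control and spen. No Toll gene had the order of arrays of pirk. The probe sets of dl, a Rel-family factor, disagreed, with 1.00 and 0.18 in spen and 0.57 and −1.02 in Su(H).

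Likeness to Rel and pirk was measured as the root mean square distance of levels centred on each probe set's own mean over the 5 arrays, among 9121 other probe sets of 1 gene. The nearest to Rel were ox, a respiratory chain subunit gene (0.06), ana3, a centriole gene, Polr2L, an RNA polymerase subunit gene, CG7655 and CG9344, all within 0.10. The nearest to pirk were farther off, CG14491 at 0.83, P5CDh1 at 0.92, CG9641 at 1.05, CG31219 at 1.08 and Ugt35C1 at 1.09. CG14491 stood at 7.59 on control, 4.01 on spen, 7.72 on E(spl), 6.64 on Su(H) and 8.64 on EGFR. CG14491 on spen, and Ugt35C1 on control, spen and Su(H), were not above the highest Bacillus control, so their distances rest partly on background levels. With 5 arrays, a close distance describes these arrays only.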
